A study of Schizosaccharomyces pombe with 15 samples.

Results

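Cells of the fission yeast Schizosaccharomyces pombe sampled 10 min after irradiation with atmospheric-pressure plasma were compared with cells treated with hydrogen peroxide (H2O2), with 3 RNA sequencing libraries in each group. The members are the 3 libraries labelled plasma, 10min and the 3 labelled H2O2 treatment, 6 of the 15 libraries of the series, and every one of the 5214 genes with enough counts to be tested among the 6998 listed. All cells were of strain JY450, genotype wt, grown in YE medium, and the other 9 libraries came from cells without irradiation and from cells 15 and 30 min after plasma. Growth before treatment is described for log and stationary phase without saying which applies to these libraries, and no source used here states the plasma dose or the concentration and duration of H2O2. The 2 groups were counted in separate deposited tables, so agent, dose, time and table cannot be told apart in any difference below. The untreated libraries were counted in the plasma table. Treatment and table thus also cannot be told apart wherever H2O2 libraries are set against untreated ones.

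Plasma at atmospheric pressure is a partly ionised gas that delivers a mixture of reactive oxygen and nitrogen species, with hydrogen peroxide among them. In fission yeast, peroxide oxidises the peroxiredoxin Tpx1, which passes the oxidation on to the transcription factor Pap1. Oxidised Pap1 stays in the nucleus and induces genes for antioxidants, oxidoreductases and efflux pumps. Many stresses act through the kinase Sty1 and the transcription factor Atf1, which induce a shared set called the core environmental stress response, while unfolded protein acts through the heat shock factor Hsf1, which induces chaperones.

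The cells with H2O2 held more transcript of 12 of 14 Pap1-regulated genes, 14 of 17 oxidoreductase genes and 12 of 14 iron uptake genes. Lists can share genes, and osr1 is both Pap1-regulated and an oxidoreductase gene. The cells 10 min after plasma held more transcript of 17 of 22 chaperone genes, 21 of 36 nuclear genes of respiration and 15 of 37 genes of mitosis and cell separation. Of the core stress genes 6 of 33 were higher on either side (18.2%), near the shares over all genes given next. Of the 5214 genes, 774 were higher 10 min after plasma (14.8% of genes tested) and 911 were higher with H2O2 (17.5%), at an adjusted p under 0.05 in the quasi-likelihood test of edgeR with Benjamini-Hochberg adjustment over all genes tested. Most of these differences were small, and 1212 of the 1685 were under 1.5-fold. Differences of at least 2-fold numbered 251 genes (4.81%), 92 of them higher after plasma and 159 higher with H2O2, of which 42 and 47 were not protein coding. In 2517 genes (48.3%) the libraries of the groups did not overlap, with plasma above in 1262 (24.2%) and H2O2 above in 1255 (24.1%). Only 41 genes differed 4-fold or more, 8 of them higher after plasma and 33 higher with H2O2. Throughout, levels are CPM (read counts scaled to a common library size), given per library in the order a, b, c or as mean ± SD (n = 3). Log2 fold changes are plasma minus H2O2 ± SE, and stand in brackets where no other name is given, and a positive value means a higher level after plasma.

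**Figure D1:**
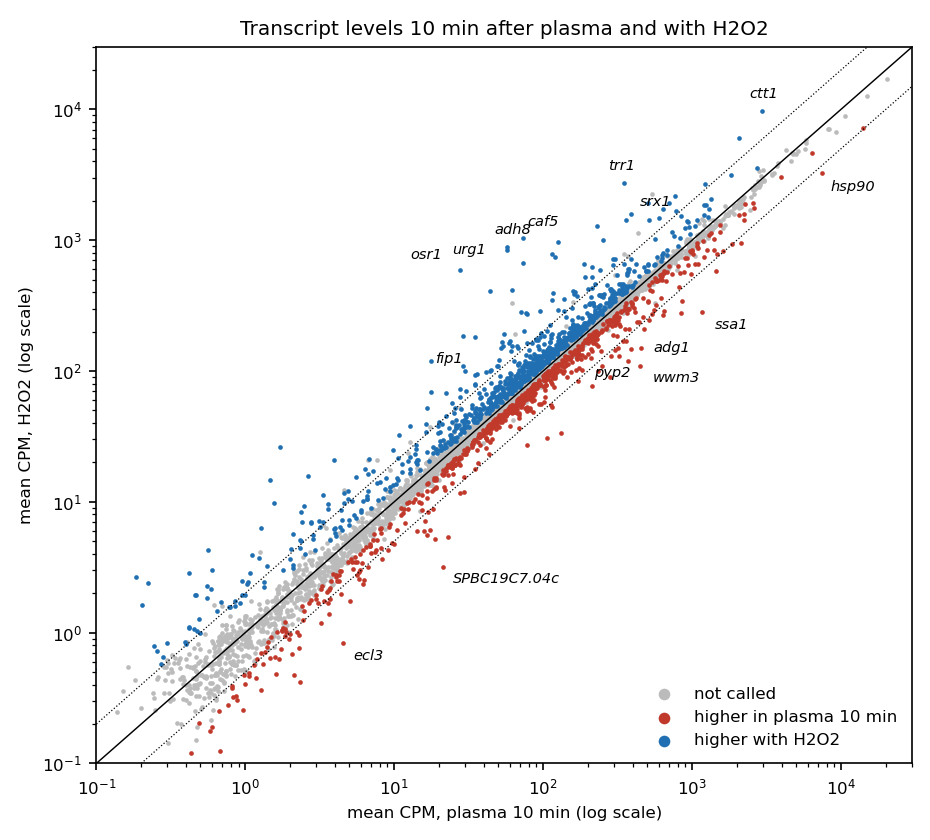
Mean CPM of each tested gene 10 min after plasma (horizontal, log scale) against H2O2 (vertical, log scale), each a mean of 3 libraries. The solid line marks equal levels and the dotted lines 2-fold differences; colours mark genes that passed the test. The genes farthest from the line lie above it, on the H2O2 side, where 33 of the 41 genes with a difference of 4-fold or more are found.

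The libraries compared held 17969123 to 22012697 counts. On the first principal component of these 6 libraries, which held 68% of the variance, plasma libraries lay between -17.22 and -15.85 and H2O2 libraries between 14.84 and 17.87. On the second, which held 10%, library a of plasma lay at 11.2 and libraries b and c at -6.49 and -5.54. Ribosomal RNA made up 0.148 to 0.309% of the counts after plasma and 0.202 to 1.28% with H2O2. Among the untreated libraries, which entered the fit through the shared spread, library b stood apart in chaperone transcripts, at a summed 37020 CPM over the 22 chaperone genes tested against 22980 and 23700 CPM in libraries a and c. Without that library 1927 genes passed the test, 838 of them higher after plasma and 1089 higher with H2O2.

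Promoters of genes on which the results turn are shown first, as the 250 bases before the annotated gene start. They were read from the RefSeq assembly ASM294v3, whose gene starts can differ from those in the deposited tables. For caf5 the whole stretch shown lies inside the gene interval that the deposited tables list, not before it. The motif counts below use the RefSeq starts as well. Capitals mark exact matches on either strand of sequences known as binding elements: TTAGTAA for Pap1, TGACGT for Atf1, GAANNTTC for heat shock factor and GTAAACA for forkhead factors of the cell cycle. osr1 and urg1 are shown as 2 of the 3 protein-coding genes with the largest excess with H2O2 (chrIII:1645877-1646126, minus strand, and chrI:1835004-1835253, plus strand). The others were chosen after their values and matches were seen. caf5 (chrII:3166331-3166580, plus strand) and srx1 (chrII:377013-377262, minus strand) show the Pap1 letters, ctt1 (chrIII:58834-59083, minus strand) and wwm3 (chrII:202031-202280, plus strand) the Atf1 letters, and ssa1 (chrI:2297965-2298214, minus strand) the heat shock letters. In caf5 the Pap1 and forkhead letters overlap in a single run.
osr1: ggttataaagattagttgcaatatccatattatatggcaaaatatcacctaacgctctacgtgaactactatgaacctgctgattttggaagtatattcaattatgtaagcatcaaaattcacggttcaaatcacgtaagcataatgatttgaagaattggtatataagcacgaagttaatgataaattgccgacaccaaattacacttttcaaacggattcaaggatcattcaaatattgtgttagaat
urg1: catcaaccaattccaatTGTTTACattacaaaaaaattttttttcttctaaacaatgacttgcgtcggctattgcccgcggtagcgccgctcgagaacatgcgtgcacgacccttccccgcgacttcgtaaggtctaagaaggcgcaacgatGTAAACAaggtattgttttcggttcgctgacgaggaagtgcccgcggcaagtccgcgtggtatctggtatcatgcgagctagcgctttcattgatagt
caf5: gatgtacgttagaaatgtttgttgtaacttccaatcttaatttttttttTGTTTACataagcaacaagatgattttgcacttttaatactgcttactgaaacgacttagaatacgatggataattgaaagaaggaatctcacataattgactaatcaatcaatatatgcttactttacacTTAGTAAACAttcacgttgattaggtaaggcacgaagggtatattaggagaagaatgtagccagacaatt
srx1: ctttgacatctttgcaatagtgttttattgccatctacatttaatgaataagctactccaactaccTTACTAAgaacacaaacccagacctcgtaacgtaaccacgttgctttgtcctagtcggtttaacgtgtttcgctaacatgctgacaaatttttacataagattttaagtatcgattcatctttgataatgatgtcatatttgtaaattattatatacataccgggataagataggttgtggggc
ctt1: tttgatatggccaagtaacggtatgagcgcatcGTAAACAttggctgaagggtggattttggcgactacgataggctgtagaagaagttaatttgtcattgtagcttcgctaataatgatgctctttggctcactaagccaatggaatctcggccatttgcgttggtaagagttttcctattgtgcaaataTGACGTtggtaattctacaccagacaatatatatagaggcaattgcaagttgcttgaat
wwm3: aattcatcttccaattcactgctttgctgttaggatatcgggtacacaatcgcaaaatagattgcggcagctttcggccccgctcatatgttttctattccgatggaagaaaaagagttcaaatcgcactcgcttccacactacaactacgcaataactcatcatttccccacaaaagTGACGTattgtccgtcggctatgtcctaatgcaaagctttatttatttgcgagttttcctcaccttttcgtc
ssa1: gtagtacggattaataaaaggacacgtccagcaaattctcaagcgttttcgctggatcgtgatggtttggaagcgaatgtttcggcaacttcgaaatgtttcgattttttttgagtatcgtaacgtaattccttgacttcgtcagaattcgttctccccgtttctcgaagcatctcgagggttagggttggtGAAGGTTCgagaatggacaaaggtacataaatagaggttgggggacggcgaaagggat

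These letters were not spread evenly over the gene groups. TTAGTAA stood in 10.7% of all 5112 protein-coding promoters, in 5 of the 15 coding genes with the largest excess with H2O2, in 0 of the 15 with the largest excess after plasma and in 5 of the 14 Pap1-regulated genes tested. The longer Pap1 palindrome TTACGTAA stood in 0.469% of all promoters and in 0 of those 14. TGACGT stood in 5.52% of all promoters and in 15 of the 33 core stress genes tested, among them wwm3, higher after plasma, and ctt1, higher with H2O2. It stood in 2 of the 15 genes with the largest excess after plasma and in 0 of the 15 with H2O2. GAANNTTC stood in 9.49% of all promoters and in 10 of the 22 chaperone genes, but in 1 of the 15 after plasma and 2 of the 15 with H2O2. GTAAACA, in 14.8% of all promoters, stood in 17 of the 37 genes of mitosis and cell separation and in 3 of each set of 15. The MBF element ACGCGT stood in 2.64% of all promoters and in 0 of both sets of 15. The promoter of osr1, the gene with the largest difference, held none of the 6 sequences. A match is a description of letters and was not tested as a binding site.

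The thioredoxin system, which reduces peroxide and repairs its own oxidised peroxiredoxin, was higher with H2O2 in 6 of the 9 genes tested and higher after plasma in 1, with a median log2 fold change of -0.62 against 0.022 over all genes. srx1 (SPBC106.02c, chromosome II, 376253 to 377036), the sulfiredoxin gene, stood at 396, 429.5 and 344 CPM in libraries a to c of plasma and at 1532, 1656 and 1568 CPM with H2O2. All 3 H2O2 libraries lay above all plasma libraries, 4.07-fold on the fitted scale (-2.02 ± 0.08, adjusted p = 9.11e-11), and both groups lay far above the untreated level of 17.98 ± 0.775 CPM. trr1 (SPBC3F6.03, chromosome II, 4189144 to 4191448), the thioredoxin reductase gene, stood at 287, 402 and 365 CPM after plasma and at 2821, 2866 and 2564 CPM with H2O2 (-2.97 ± 0.17, adjusted p = 4.12e-09). The plasma libraries of trr1 were thus only slightly above the untreated libraries, at 261, 266 and 279 CPM, while the H2O2 libraries were well above both, although 70.3% of the trr1 interval is shared with another gene and counting set no strand option. The peroxiredoxin gene tpx1 stood at 2056 ± 322 CPM after plasma and 6065 ± 465 CPM with H2O2 (-1.56 ± 0.14), and bcp1, a second thioredoxin peroxidase, at 84.3 ± 4.57 and 164 ± 15.4 CPM. The exception was pmp20, a peroxiredoxin-family protein with chaperone activity, which stood at 1846 ± 188 CPM after plasma and 942 ± 67.5 CPM with H2O2 (0.97 ± 0.16). gpx1, the glutathione peroxidase gene, did not pass the test, at 753 ± 122 and 728 ± 23.1 CPM (log2 fold change 0.05 ± 0.17, adjusted p = 0.849).

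Of the 4 genes for catalase and superoxide dismutase, 3 were higher with H2O2 and 1 after plasma. ctt1 (SPCC757.07c, chromosome III, 56654 to 58865) encodes catalase, which breaks down peroxide, and stood at 2650, 3471 and 2756 CPM after plasma and at 9826, 9564 and 9784 CPM with H2O2 (-1.72 ± 0.16, adjusted p = 8.94e-07), so the groups did not overlap. sod1, the copper-zinc superoxide dismutase gene, stood at 526, 639.6 and 646 CPM after plasma, against 679.5 ± 69.9 CPM untreated, and at 1510, 1508 and 1393 CPM with H2O2 (-1.28 ± 0.10, adjusted p = 9.38e-08). ccs1, which loads copper into Sod1, was also higher with H2O2 (-0.58 ± 0.06). sod2, the mitochondrial manganese enzyme, was slightly higher after plasma (0.25 ± 0.08, adjusted p = 0.0333), a call lost without any of 5 of the 6 libraries compared, the exception being library a of plasma. In the glutathione group 5 of 14 genes were higher with H2O2 and 2 after plasma, or 1 without library b of plasma, with a median of 0.008. Those higher with H2O2 included the transferase gene gst2, at 506 ± 50.3 after plasma and 1932 ± 40.1 CPM with H2O2, the glutathione reductase gene pgr1 (-0.65 ± 0.07) and gcs1, which encodes the enzyme that starts glutathione synthesis (-0.69 ± 0.05). gst3, another transferase gene, did not pass, at 247 ± 26.5 and 204 ± 13.02 CPM (0.28 ± 0.13, adjusted p = 0.108), but passed when the 6 libraries were fitted alone (adjusted p = 0.0267).

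Pap1-regulated genes formed the group with the lowest median, at -1.82. Of 16 listed genes 14 had enough counts to be tested, 12 were higher with H2O2 and 0 were higher after plasma. osr1 (SPCC663.06c, chromosome III, 1644754 to 1645876), an oxidoreductase gene, stood at 26.6, 29.9 and 27.0 CPM after plasma, just above the untreated 20.3, 20.2 and 18.03 CPM. With H2O2 it stood at 627 and 634 CPM in libraries a and b and lowest in library c, with a mean of 594 ± 63.2 CPM, 21.4-fold above plasma (-4.42 ± 0.16, adjusted p = 4.44e-11). caf5 (SPBC609.04, chromosome II, 3166119 to 3168485), a spermine family transporter gene, stood at 66.5, 86.8 and 68.0 CPM after plasma and at 1063, 1043 and 999.9 CPM with H2O2 (-3.81 ± 0.15, adjusted p = 9.11e-11), and another gene covers 41.3% of its interval. The 3 H2O2 libraries of both genes lay above all libraries of the plasma times as well, since 30 min after plasma osr1 stood at 65.5 ± 1.85 and caf5 at 318 ± 29.6 CPM. adh8, an alcohol dehydrogenase gene, stood at 57.5 ± 8.58 CPM after plasma and 889 ± 83.8 CPM with H2O2 (-3.95 ± 0.17), and the flavin oxidoreductase gene SPBC23G7.10c at 115 ± 22.2 and 789.7 ± 57.1 CPM. The drug pump gene bfr1 had a log2 fold change of -1.52 ± 0.13. The transcript of pap1 itself was slightly higher with H2O2, at means of 219.9 and 267 CPM (-0.28 ± 0.05). With any 1 library of the 6 left out, 12 genes of the list were higher with H2O2.

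**Figure D2:**
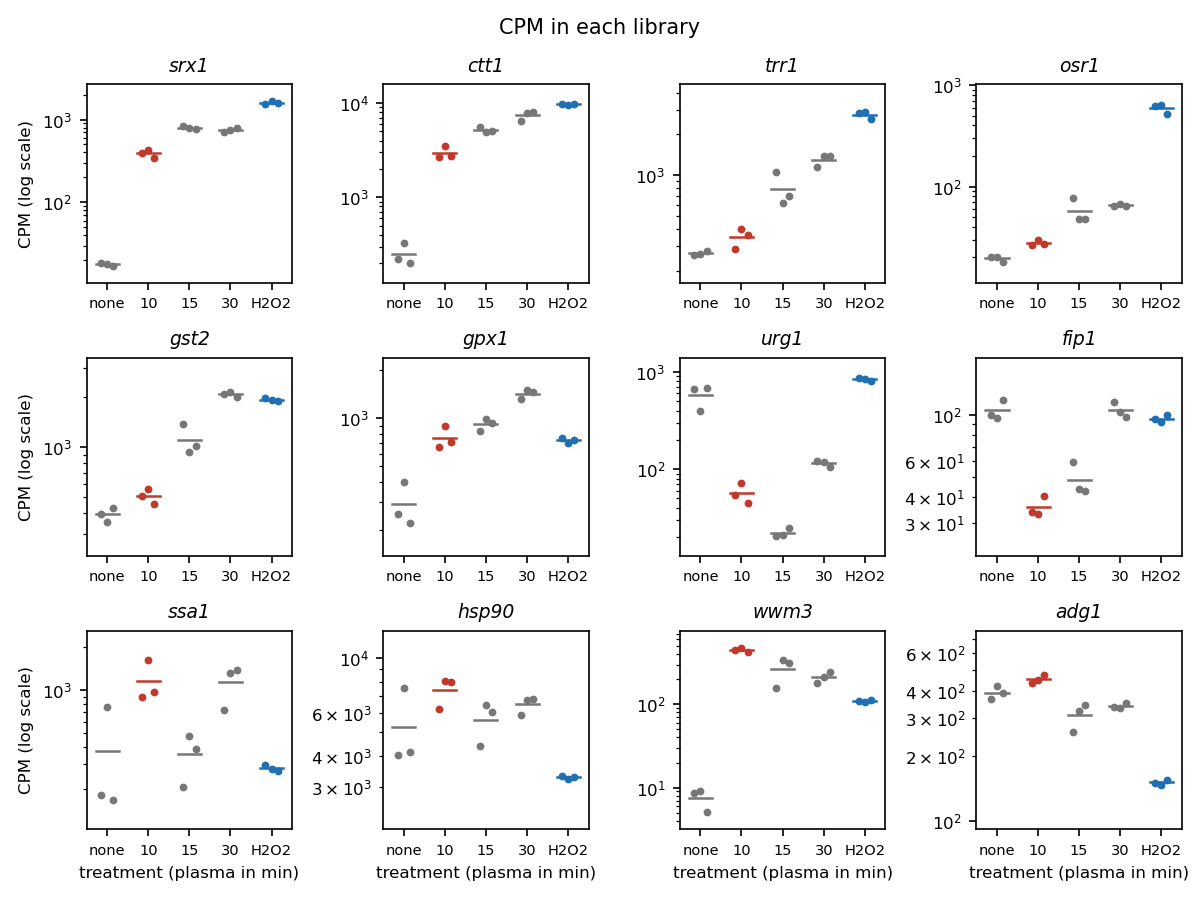
CPM (vertical, log scale) of 12 genes in each of the 15 libraries, with a point per library and a line at the mean of each group of 3; none is no irradiation, 10, 15 and 30 are min after plasma, red marks plasma 10 min and blue H2O2. srx1, ctt1, trr1, osr1 and gst2 are higher with H2O2, gpx1 is level, urg1 and fip1 are low 10 min after plasma, and ssa1, hsp90, wwm3 and adg1 are higher 10 min after plasma.

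Oxidoreductases outside the antioxidant systems followed the same direction, with 14 of 17 higher with H2O2, 1 higher after plasma and a median of -1.44. This list is not separate from the Pap1-regulated one, since osr1 is in both. The 5 largest differences among them were those of osr1, adh8, SPBC23G7.10c and the aldo/keto reductase genes SPAC750.01 (-2.77 ± 0.12) and SPBC215.11c (-2.48 ± 0.13). The exception was SPAC2F3.05c, annotated as a xylose and arabinose reductase, at 234 ± 36.9 CPM after plasma and 101 ± 3.996 CPM with H2O2 (1.21 ± 0.19). zwf1, which encodes the first enzyme of the pentose phosphate pathway and so supplies NADPH, stood at 1132, 1382 and 1153 CPM after plasma and 2767, 2689 and 2651 CPM with H2O2 (-1.15 ± 0.08, adjusted p = 2.30e-08). The transaldolase gene tal1 differed in the same direction (-0.56 ± 0.09), and 4 of the 9 pentose phosphate genes were higher with H2O2 against 2 without library a of plasma. A related gene annotated as a glucose-6-phosphate dehydrogenase, SPAC3C7.13c, was higher after plasma (0.50 ± 0.07), although 48.8% of its interval lies in another gene.

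Other genes with a large excess with H2O2 had no place in these lists. They included SPCC576.02, a hydantoin racemase family gene, at 43.8 ± 3.08 CPM after plasma and 409 ± 7.21 CPM with H2O2, and the purine transporter gene SPAC29B12.14c, at 126 ± 8.54 and 967 ± 21.6 CPM. The kinase gene ppk8 stood at 63.8, 59.1 and 61.1 CPM after plasma and 429, 429 and 398 CPM with H2O2 (-2.77 ± 0.08, adjusted p = 2.62e-12). rib4, which encodes lumazine synthase of riboflavin synthesis, had a log2 fold change of -2.62 ± 0.14, cmt2, a catechol methyltransferase gene, -2.67 ± 0.10, and the melibiase gene mel1 -2.57 ± 0.19. Efflux pumps were split, with 8 of 12 higher with H2O2 and 2 after plasma. Besides caf5 and bfr1, the pumps higher with H2O2 included abc1 (-1.30 ± 0.06) and mfs2 (-1.23 ± 0.07). The 2 higher after plasma were mfs3, a spermidine family transporter gene, at 371, 349.8 and 393 CPM against 110.3, 123 and 122 CPM with H2O2 (1.65 ± 0.12, adjusted p = 3.97e-08), and mfs1, at 106 ± 8.05 against 30.6 ± 1.54 CPM (1.79 ± 0.09). The level of mfs3 after plasma was close to the untreated 360.0 ± 66.1 CPM, so for this gene it was the H2O2 libraries that stood apart.

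**Figure D3:**
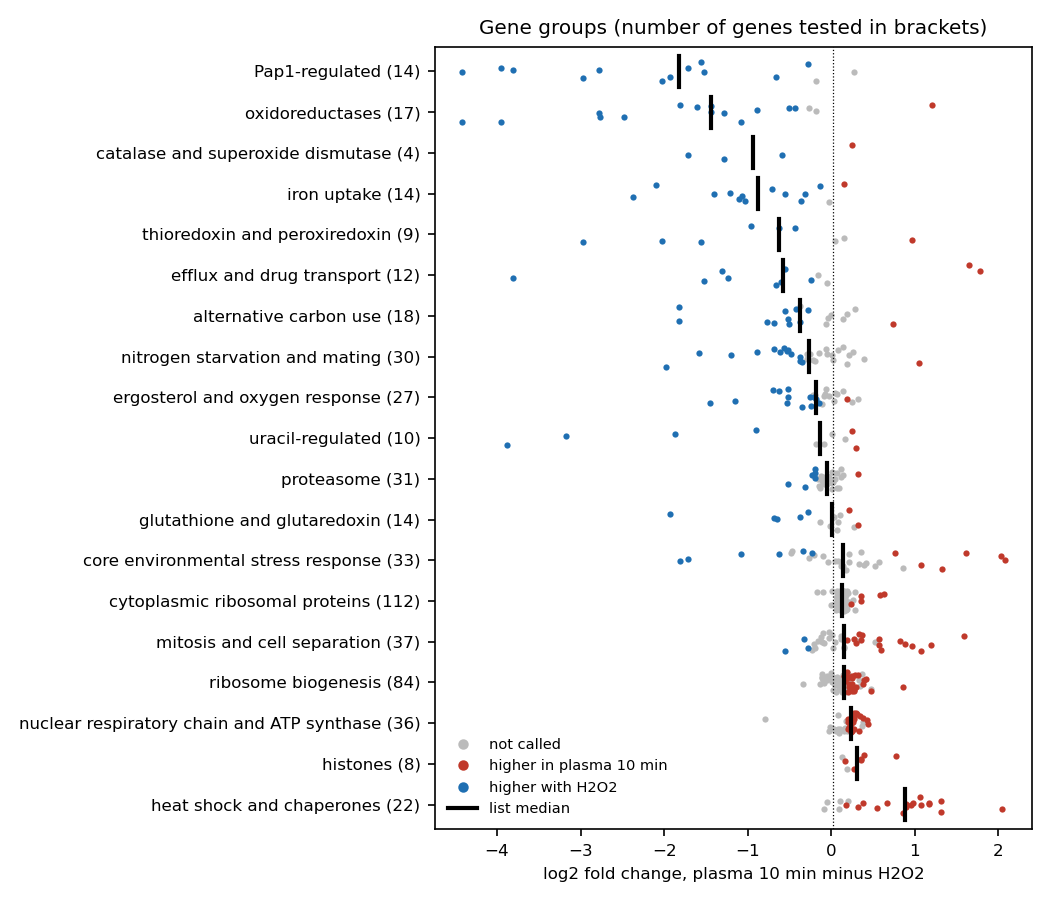
Log2 fold change, plasma 10 min minus H2O2 (horizontal), of each tested gene in 19 gene groups, with a point per gene coloured by the test and a bar at each group's median; the dotted line is the median of all genes, 0.022. The Pap1-regulated genes lie farthest left, with a median of -1.82, and the chaperones farthest right, with a median of 0.881.

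In 3 genes of the uracil-regulated group, urg1, urg2 and urg3, mean levels with H2O2 were above the untreated ones and those after plasma below both. urg1 (SPAC1002.19, chromosome I, 1835270 to 1837060), a uracil-regulated gene annotated as GTP cyclohydrolase, stood at 54.1, 72.1 and 44.6 CPM after plasma, at 871, 845 and 799.9 CPM with H2O2 and at 666, 399 and 688 CPM untreated (-3.88 ± 0.20, adjusted p = 1.13e-09 for plasma minus H2O2). The plasma libraries were thus below both other groups with no overlap. The nearby gene urg2, annotated as a uracil phosphoribosyltransferase, stood at 73.8 ± 17.5, 665 ± 40.9 and 509 ± 90.1 CPM in the same order, and urg3 at 76.2 ± 2.43, 279 ± 12.9 and 198 ± 24.8 CPM. The de novo pyrimidine genes ura3 and ura5 were slightly higher after plasma (0.25 ± 0.07 and 0.30 ± 0.06), and their mean levels with H2O2 were below both the plasma and the untreated ones. The ura3 call was lost without library c of plasma, without library a or c of H2O2 and with total counts. The whole group of 10 had 4 genes higher with H2O2 and 2 after plasma.

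Iron genes, many of which the repressor Fep1 silences when iron is plentiful, were higher with H2O2 in 12 of 14 cases and higher after plasma in 1, with a median of -0.87. fip1 (SPAC1F7.07c, chromosome I, 4232998 to 4234760), the iron permease gene, stood at 34.1, 33.4 and 40.7 CPM after plasma, 95.0, 92.3 and 99.5 CPM with H2O2 and 99.9, 96.8 and 118 CPM untreated (-1.41 ± 0.12, adjusted p = 1.98e-07). Its partner gene fio1, the iron oxidase, stood at 24.6 ± 3.27, 56.9 ± 4.94 and 69.1 ± 4.85 CPM. The siderophore transporter gene str3 stood at 4.81, 2.71 and 4.39 CPM after plasma and 20.9, 20.0 and 21.1 CPM with H2O2 (-2.37 ± 0.19, adjusted p = 1.31e-07), against 11.4 ± 1.29 CPM untreated. For fip1 and fio1 the plasma libraries were low against both other groups, whereas str1, another siderophore transporter gene, stood at 199 ± 5.77, 426 ± 47.1 and 188 ± 24.6 CPM, so there the H2O2 libraries were high. The gene higher after plasma was pcl1, a vacuolar iron transporter (0.15 ± 0.06), a call lost without any of 5 single libraries of the 6, without scaling beyond total counts, with RLE size factors, without the filter on low counts and in the 6 libraries alone.

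Among nutrient genes more passed the test as higher with H2O2 than after plasma. Of 30 genes of nitrogen starvation and mating 13 were higher with H2O2 and 1 after plasma. isp7, a dioxygenase gene of amino acid uptake control, stood at 71.5 ± 17.6 CPM after plasma and 282 ± 21.8 CPM with H2O2, and the ammonium transporter gene amt1 at 44.4 ± 5.43 and 101 ± 2.69 CPM, where untreated cells held 105 ± 15.6 CPM. The gene higher after plasma was mfm2, which encodes a mating pheromone precursor (1.05 ± 0.12). ste11, the master regulator of sexual differentiation, did not pass (0.19 ± 0.09, adjusted p = 0.108). Among 18 genes of alternative carbon use 10 were higher with H2O2, including ght5, a high-affinity glucose transporter gene, at 46.5, 47.8 and 69.3 CPM after plasma and 197, 188 and 192 CPM with H2O2 (-1.82 ± 0.13, adjusted p = 5.62e-08). A second hexose transporter gene, ght2, went the other way, at 1095 ± 84.9 CPM after plasma, 654 ± 33.0 CPM with H2O2 and 232 ± 47.2 CPM untreated (0.74 ± 0.14). Ergosterol and oxygen response genes were higher with H2O2 in 13 of 27 cases and after plasma in 1, or in 0 without library a or c of plasma. Those higher with H2O2 included the sterol desaturase gene erg31 (-1.45 ± 0.08) and the heme synthesis gene hem13 (-1.15 ± 0.07).

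Heat shock and chaperone genes showed the opposite direction. Of 22 genes tested out of 27 matched, 17 were higher after plasma and 0 with H2O2, with a median of 0.881. ssa1 (SPAC13G7.02c, chromosome I, 2295580 to 2297981), an Hsp70 gene, stood at 896, 1630 and 964.8 CPM after plasma and at 299, 280.0 and 269 CPM with H2O2 (2.04 ± 0.49, adjusted p = 0.00482). All plasma libraries lay above all H2O2 libraries, and library b of plasma was the highest. hsp90 (SPAC926.04c, chromosome I, 3888558 to 3891157), the Hsp90 gene, stood at 6237, 8052 and 7971 CPM after plasma and 3334, 3235 and 3302 CPM with H2O2 (1.17 ± 0.21, adjusted p = 4.45e-04). Its co-chaperone gene sti1 stood at 1447 ± 252 and 583 ± 22.6 CPM (1.31 ± 0.28), the second Hsp70 gene ssa2 at 13960 ± 2431 and 7210 ± 289.9 CPM (0.95 ± 0.20), and ssa1 and ssa2 are close paralogs between which reads may have been split. The mitochondrial disaggregase gene hsp78 was also higher after plasma (1.17 ± 0.30). hsp104, its cytosolic counterpart, had 776, 1060 and 739 CPM after plasma and 371, 330.3 and 334 CPM with H2O2 (1.31 ± 0.40, adjusted p = 0.0192), and the small heat shock gene hsp16 had 236, 416 and 261 and 152, 148 and 133 CPM (1.08 ± 0.34, adjusted p = 0.0226). The hsp104 call was lost without library b of plasma or library b or c of H2O2, and the hsp16 call without any of these or library a of H2O2. The transcript of hsf1, the heat shock factor, did not pass (-0.04 ± 0.07, adjusted p = 0.681).

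Summed over the 22 chaperone genes, the plasma libraries held 32180, 42920 and 41080 CPM and the H2O2 libraries 23110, 22110 and 22050 CPM. Untreated libraries held 22980, 37020 and 23700 CPM, so H2O2 libraries lay close to untreated libraries a and c, and untreated library b lay within the range of the plasma libraries. The ssa1 transcript in the untreated libraries was 182, 763 and 168 CPM. The part of handling or culture in these levels was not tested. At 15 min after plasma ssa1 stood at 209.5, 473 and 384 CPM, library a below and libraries b and c above the H2O2 libraries, and at 30 min it stood at 727, 1322 and 1393 CPM. With 1 library of the 6 left out, 12 to 17 of the chaperone genes were higher after plasma and 0 with H2O2. In the endoplasmic reticulum only 2 of 19 folding genes were higher after plasma, or 1 without library c of plasma, among them the lumenal Hsp70 gene bip1 at 2593 ± 152 against 1759 ± 20.8 CPM (0.56 ± 0.12), while 5 were higher with H2O2, including the oxidase gene ero12 (-0.40 ± 0.04).

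**Figure D4:**
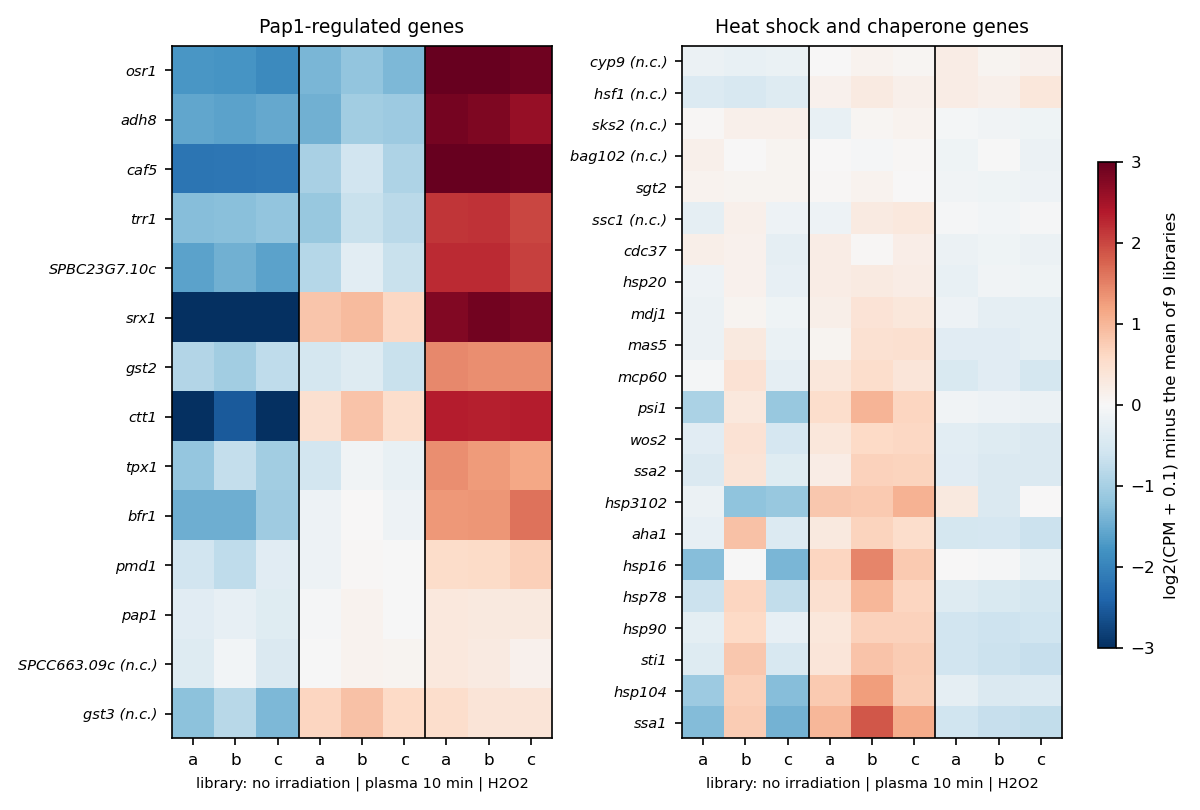
Each row is a gene and each column a library; colour is log2(CPM + 0.1) minus the mean of the 9 libraries shown, and (n.c.) marks genes that did not pass the test. The 14 Pap1-regulated genes tested are on the left and the 22 chaperone genes on the right, where untreated library b resembles the plasma libraries, with a summed 37020 CPM.

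In the core environmental stress response 6 of 33 tested genes were higher after plasma and 6 with H2O2 (18.2% each), with a median of 0.141. Over all genes tested the shares were 14.8% and 17.5%, so for differences of any size this group lay near genes in general. Differences of at least 2-fold took up more of it. They numbered 5 of the 33 genes after plasma and 3 with H2O2, against 92 and 159 of all 5214. Fitted to the 6 libraries alone, 12 core stress genes were higher after plasma. wwm3 (SPBC660.05, chromosome II, 202257 to 203623), a gene of unclear function, stood at 446, 474 and 426 CPM after plasma and at 111, 106 and 112 CPM with H2O2 (2.03 ± 0.22, adjusted p = 3.44e-06), against 8.54, 9.07 and 5.09 CPM untreated. Both groups were far above the untreated libraries, and the plasma libraries were highest. pyp2 (SPAC19D5.01, chromosome I, 5202366 to 5205202) encodes a tyrosine phosphatase that inactivates Sty1. It stood at 351, 329 and 291 CPM after plasma and 122, 118 and 148 CPM with H2O2 (1.32 ± 0.24, adjusted p = 6.69e-04). SPAC32A11.02c, of unknown function, stood at 843 ± 45.3 and 276 ± 28.4 CPM (1.61 ± 0.16), and the zinc finger factor gene rsv2 had a log2 fold change of 0.77 ± 0.17. SPACUNK4.17, a dehydrogenase gene covered over 80.2% of its interval by another gene, was also higher after plasma (2.08 ± 0.40). Those higher with H2O2 included ctt1, atf1 and the oxidoreductase gene SPBC16A3.02c (-1.08 ± 0.15). Many of the set's best known members did not pass. The levels after plasma and with H2O2 were 2976 ± 661 and 3426 ± 117 CPM for hsp9, 1620 ± 265 and 1229 ± 37.8 CPM for the trehalose synthase gene tps1, 5832 ± 722 and 5529 ± 219 CPM for the glycerol synthesis gene gpd1, and 91.9 ± 14.9 and 83.3 ± 6.90 CPM for the metallothionein gene zym1. Of these tps1 passed in the 6 libraries alone (adjusted p = 0.024).

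Of 28 components of the stress kinase pathways 12 were a little higher with H2O2 and 15 did not pass, with pyp2 the only gene higher after plasma in edgeR's test of all 15 libraries. atf1, the transcription factor gene, stood at 329, 435 and 356 CPM after plasma and 566, 548 and 612 CPM with H2O2 (-0.62 ± 0.13, adjusted p = 0.00143), and 171 ± 32.2 CPM untreated. The sensor kinase gene mak1 (-0.49 ± 0.08), mkh1, a kinase of the cell integrity pathway (-0.47 ± 0.05), and prr1, a transcription factor gene of the oxidative response (-0.41 ± 0.07), differed in the same direction. srk1, a kinase activated by Sty1, did not pass, at 666 ± 83.0 and 614 ± 27.5 CPM against 120.3 ± 8.28 CPM untreated (0.12 ± 0.13, adjusted p = 0.512). Of the small Ecl proteins, which extend chronological lifespan, ecl1 was higher with H2O2, at 34.7 ± 4.56 against 92.9 ± 1.65 CPM, and ecl3 higher after plasma, at 5.10, 4.09 and 4.39 against 0.854, 0.967 and 0.674 CPM (2.44 ± 0.26, adjusted p = 2.88e-06). The largest excess after plasma among all named genes was that of SPBC19C7.04c (SPBC19C7.04c, chromosome II, 2825251 to 2826700), of unknown function, at 20.1, 22.8 and 20.7 CPM against 3.07, 3.48 and 3.031 CPM with H2O2 (2.73 ± 0.17, adjusted p = 7.61e-09). Other genes with a large excess after plasma were SPAC513.02, a phosphoglycerate mutase family gene (1.97 ± 0.20), the F-box gene pof15 (1.86 ± 0.21), the transcription factor gene SPAC2H10.01 (1.64 ± 0.15), the transporter gene SPCC794.04c (1.51 ± 0.20), SPAC343.20 (1.54 ± 0.21) and the kinase gene oca2 (1.47 ± 0.15). SPAC343.20 is covered over 85.17% of its interval by another gene and was weakly expressed, at means of 5.084 CPM after plasma and 1.745 CPM with H2O2.

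Of 37 genes of mitosis and cell separation 15 were higher after plasma, 3 were higher with H2O2, or 5 without library b of the untreated cells, and 19 did not pass, with a median of 0.15. adg1 (SPAPJ760.03c, chromosome I, 5265435 to 5266589), a cell wall gene, stood at 437, 450.2 and 477 CPM after plasma and 151, 147 and 156 CPM with H2O2 (1.59 ± 0.09, adjusted p = 2.05e-09). The plasma libraries lay somewhat above the untreated 368, 423 and 394 CPM, and the H2O2 libraries far below. agn1, the glucanase gene that separates daughter cells, stood at 248 ± 6.92 and 108 ± 11.2 CPM (1.19 ± 0.09), and cfh4, annotated as a chitin synthase regulator, at 316 ± 12.6 and 149.7 ± 6.25 CPM (1.08 ± 0.09). slp1, an activator of the anaphase-promoting complex, stood at 179, 218 and 172 CPM after plasma and 128, 129.6 and 124 CPM with H2O2 (0.57 ± 0.11, adjusted p = 8.12e-04), both below the untreated 389.6 ± 25.6 CPM. The 3 genes higher with H2O2 were the mitotic inhibitor kinase gene wee1 (-0.55 ± 0.14), klp6 (-0.32 ± 0.05) and rng2 (-0.27 ± 0.09), the last lost without any of 4 single libraries and with total counts. Among 20 genes of the G1/S programme 8 were higher after plasma and 2 with H2O2, or 4 without library b of the untreated cells. Those higher after plasma included the cyclin gene cig2 (0.98 ± 0.10), covered over 77% of its interval by another gene, the kinase gene mik1 (0.80 ± 0.10) and the repressor gene yox1 (0.63 ± 0.09). Histone genes, which share near-identical copies, were higher after plasma in 6 of 8 cases, but in 2 or 3 once library b or c of plasma, or library a or c of H2O2, was left out.

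Genes of growth and respiration differed by small amounts. Of 36 nuclear genes of the respiratory chain and ATP synthase 21 were higher after plasma and 0 with H2O2, with a median of 0.237, such as cyt1, the cytochrome c1 gene (0.33 ± 0.06), qcr7 (0.31 ± 0.05) and atp5 (0.26 ± 0.05). Under the alternatives 14 to 23 of the respiratory genes were higher after plasma and 0 with H2O2, with 14 without library c of H2O2 and 15 without library b of plasma. Ribosome biogenesis genes were higher after plasma in 24 of 84 cases, with 0 higher with H2O2 and a median of 0.155, including nop14 (0.47 ± 0.08) and rcl1 (0.38 ± 0.05). That count was 10 without library c of plasma, 15 without library a and 34 without library b, and it was 11, 15 and 13 without libraries a, b and c of H2O2, and 10 with total counts. Cytoplasmic ribosomal protein genes had a median of 0.13 and a positive log2 fold change in 110 of 112 cases, yet only 5 passed the test, all higher after plasma. Without library a of plasma 21 passed, and 3 passed without library c of plasma or library a or c of H2O2. Among sulfur genes sam1, the S-adenosylmethionine synthetase gene, stood at 1950, 2163 and 2256 CPM after plasma and 956, 971 and 927 CPM with H2O2 (1.16 ± 0.16, adjusted p = 6.31e-05), near the untreated 1918 ± 180.3 CPM after plasma. met6 (0.79 ± 0.12) and met9 (0.33 ± 0.05) were also higher after plasma, and met16 (-0.39 ± 0.08) and cys2 (-0.80 ± 0.11) with H2O2.

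Several other groups are set beside the shares over all genes tested, of which 14.8% were higher after plasma and 17.5% with H2O2. Proteasome genes were higher with H2O2 in 6 of 31 cases (19.4%), for instance pre9 (-0.52 ± 0.06), and in 2 without library a of plasma or 3 without library a or b of H2O2, while rpn11 was higher after plasma (0.32 ± 0.09), a call lost when plasma library b was left out. DNA repair genes were higher with H2O2 in 8 of 37 cases (21.6%), among them rad50 (-0.64 ± 0.07), and after plasma in 3 (8.11%), or in 0 without library c of plasma, without library a or b of H2O2 or with total counts. Autophagy genes were higher with H2O2 in 8 of 32 cases, among them atg15 (-0.49 ± 0.08) and isp6 (-0.62 ± 0.10), and after plasma in 2, or in 0 without library b of plasma or library c of H2O2 and in 1 without library c of plasma or library b of H2O2. Of 24 cell wall glucan genes 9 were higher with H2O2, such as psu1 (-0.86 ± 0.09), and 6 after plasma, such as bgl2 (0.69 ± 0.10). Of 8 trehalose and glycerol genes 2 were higher with H2O2, tpp1 (-0.23 ± 0.07) and dak2 (-0.52 ± 0.04). For tpp1 the test was no longer passed with library a of either group or library c of H2O2 left out. Of 8 zinc genes 4 were higher with H2O2 and 0 after plasma, adh4 among the 4 (-1.60 ± 0.12). Glycolysis genes had 1 of 15 higher with H2O2 (6.67%) and 0 after plasma, or 7 after plasma when library a of plasma was left out. Of 13 phosphate and thiamine genes 3 were higher with H2O2 (23.1%) and 2 after plasma (15.4%). Non-coding genes were higher after plasma in 100 of 636 cases (15.7%, against 14.8% of all genes) and with H2O2 in 73 (11.5%, against 17.5%). Among them prl12, a polyadenylated non-coding RNA, stood at 1.71 ± 0.159 CPM after plasma and 26.4 ± 1.57 CPM with H2O2 (-3.94 ± 0.19). All 11 mitochondrially encoded genes tested had a negative log2 fold change, with a median of -1.02, and 0 passed the test, or 2 of the 10 tested in the 6 libraries alone. Their summed level was 304.2 to 772.5 CPM after plasma and 587.8 to 1775 CPM with H2O2, with library a highest and library c lowest in both groups as for ribosomal RNA, and the part of the share of ribosomal RNA in this was not tested.

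Levels at the later plasma times placed some of these differences. gst2 stood at 2080 ± 82.0 CPM 30 min after plasma, against 1932 ± 40.1 CPM with H2O2, and zwf1 at 2627 ± 102 against 2703 ± 59.1 CPM. For these genes the later plasma libraries were near the H2O2 level. For osr1, adh8 and caf5 they were not, at 65.5 ± 1.85, 223 ± 9.78 and 318 ± 29.6 CPM 30 min after plasma. fip1 stood at 105 ± 8.91 CPM at 30 min, near its H2O2 level of 95.6 ± 3.67 CPM, while urg1 stood at 116 ± 8.56 CPM, well below its H2O2 level of 839 ± 36.0 CPM. pyp2 was lower at the later times, at 159.5 ± 66.0 CPM at 15 min and 70.2 ± 17.1 CPM at 30 min, than the 324 ± 30.4 CPM at 10 min. These values are set beside the comparison without a test of their own.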

How the data were processed

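Messenger RNA was sequenced in 15 libraries, and the labels call the 3 libraries of each group biological replicates. The authors deposited raw counts in 2 tables, made per the file headers with featureCounts 2.0.1, which summed read pairs by gene over transcript features. Its command line set no strand option, although per the labels' protocols the library kit keeps strand, and no option to count pairs touching more than 1 gene, so values of overlapping genes are uncertain. The submitters' processing notes also name HISAT2 2.2.1, SAMtools 1.13 and a build called R64, a budding yeast name. The identifiers are those of fission yeast, so gene positions are as the deposited tables list them, without a build. RefSeq names matched 6852 of the 6998 identifiers.

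Both tables were joined on the identifier. Genes were filtered with filterByExpr by group, scaled with TMM and fitted in edgeR 4.0.16 (R 4.3.3) with a mean per group over all 15 libraries, of 14691752 to 23232575 counts each. The biological coefficient of variation shared by all genes was 8.8%. The two-sided quasi-likelihood test of plasma 10 min minus H2O2 was adjusted over the 5214 genes tested at 0.05, and the scripts were tested on simulated data. Each p-value sets a group difference against the spread of these samples within groups, estimated from all 15 libraries with information shared across genes. A chi-square of replicate libraries within the compared groups came to 18.3 to 49.8 times its degrees of freedom, so the spread summed over genes was above counting error.

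Columns carry letters that the labels do not tie to replicate numbers, so libraries are named by letter. The comparison, the motifs and the 34 gene lists were chosen with earlier results of these data known, so lists are described by counts without a test. From the lists 22 members were removed for their annotated product, and 34 names matched no gene. Named genes were the 15 highest and 15 lowest log2 fold changes that passed the test, with a mean count of at least 50 over the 6 libraries and no overlap of the groups, leaving out non-coding, Tf2 and mitochondrial genes. To these were added up to 3 called members with the smallest p in each direction of each list, and a panel of 30 stress genes, 29 of them tested. Outside that rule amt1, bfr1, fio1, hsf1, hsp78, rsv2, ssa2, sti1 and str1 were chosen after their values were seen. A further sequence element searched for is not reported here. Alternatives were other scalings, filters and libraries, DESeq2 1.42.0 and a block for the library letter.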

Additional observations from a re-analysis of the deposited data

How the results depend on the processing

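Against 1685 genes that passed the test, other scalings, filters, fits and tools called 1257 to 1767, from 1257 with total counts (533 higher after plasma, 724 with H2O2; 1221 of the 1257 were among the 1685) to 1767 with the replicate block, 1650 of them among the 1685. DESeq2's Wald test called 1722 genes, RLE size factors 1662 and the fit to the 6 libraries alone 1724. With 1 of the 6 libraries left out the count was 1306 to 1498, with 228 to 245 genes of at least 2-fold, and it was 1927 without library b of the untreated cells, an alternative chosen after seeing the data. Without non-coding, Tf2, ribosomal RNA and mitochondrial genes, 167 rather than 251 genes differed at least 2-fold, and 50 rather than 92 were at least 2-fold higher after plasma, since fewer genes were tested. The share of calls higher after plasma was 40.5 to 46.3%, against 45.9% as reported. No named gene that passed the test in the main fit or in an alternative changed sign between them. Sign changes of genes that passed in neither were not counted. Of the 174 genes printed or named by rule, 150 kept their call or lack of it under each alternative that tested them. The median log2 fold change of all genes was 0.007 to 0.023.

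Libraries with the same letter did not deviate from their group means together, with correlations of -0.0533, 0.0406 and 0.0682 for a, b and c. Between different letters the correlations were -0.1 to 0.0682, and the main fit did not pair libraries. The share of ribosomal RNA was highest in library a and lowest in library c in each of the 5 groups, and the part of this in the comparison was not tested. With the letter as a replicate block 1767 genes passed, 819 higher after plasma and 948 with H2O2, and 9 of the 11 mitochondrially encoded genes were higher with H2O2 rather than 0. Among small differences, those of rad16, pcl1 and atg44 lost their call with RLE size factors, with log2 fold changes of 0.139, 0.145 and 0.146. Depth limits weakly expressed genes such as mel1, and 3 libraries a side limit the rest.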
